A study of Zea mays with 6 samples.

Results

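Zm00001d030028 and Zm00001d047017 are the maize MYC2 paralogues on chromosomes 1 and 9, basic helix-loop-helix transcription factors of jasmonate-driven defence. They were chosen by identifier, and both were found among the 45953 features of the count table, so the pair is 2 of 45953 features. The count table does not itself pair identifiers with names. The name MYC2 and the chromosomes come from the definition of the pair, and the gene table used for names, which follows another assembly, matched 0 of 2 members. Leaf RNA was compared between a PP2CKO line, in which ZmPP2C45 was knocked out by genome editing in the maize inbred line KN5585, and unedited KN5585 (WT). Seedlings of both lines were 2 weeks old, each line has 3 libraries, and no herbivore, wounding or hormone treatment is stated. The labels do not say how many edited alleles or plants the knockout line represents, so an effect of the lost phosphatase and other differences between these lines cannot be told apart.

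Jasmonates are lipid-derived hormones that plants make when leaves are wounded or eaten. In Arabidopsis, jasmonoyl-isoleucine joins the F-box protein COI1 to JAZ repressors, which are then degraded. MYC2, held back by the JAZ proteins, is then free to bind G-box elements in the promoters of defence genes, and it also feeds back on jasmonate synthesis genes. Protein phosphatases 2C are serine/threonine phosphatases, several of which work in hormone pathways such as that of abscisic acid. By its title, the series places ZmPP2C45 among suppressors of chemical defence against insect herbivores. MYC2 belongs to the jasmonate branch of defence, but JAZ proteins act on it as a protein, so its transcript level does not measure its activity. Jasmonates and MYC2 protein were not examined here.

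Library totals ran from 15923668 to 20502449 counts, and 21206 features passed the filter on low counts, both members among them. Pairs of libraries of the same line differed by more than sampling noise (chi-square per degree of freedom 18.2 to 24.6), so none was counted as a copy of another. Levels are CPM, counts relative to the library total, after scaling by the trimmed mean of M values (TMM). ZmPP2C45 and leaf marker genes were not analysed here by name, so the labels of genotype and tissue were not checked at the level of transcripts.

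Both MYC2 genes had higher mean levels in knockout leaves than in WT leaves, but neither difference passed the test over all genes. Zm00001d030028 was 1.40-fold and Zm00001d047017 was 1.69-fold higher on average. Knockout replicates 2 and 3 lay above every WT library in both genes, whereas knockout replicate 1 lay within the WT range under TMM scaling. With library size alone, knockout replicate 1 lay below every WT library in both genes. In whole leaves, a change in the number of cells that express a gene and a change of RNA per cell cannot be told apart.

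Zm00001d030028, the paralogue on chromosome 1, had 50.3, 84.9 and 63.9 CPM in PP2CKO replicates 1, 2 and 3, against 53.4, 47.1 and 41.6 CPM in WT replicates 1, 2 and 3. The groups overlap, because PP2CKO replicate 1 lies between WT replicates 1 and 2. These levels rest on 785, 1294 and 1284 counts in PP2CKO and on 869, 819 and 763 counts in WT. The mean was 66.4 ± 17.4 CPM in PP2CKO and 47.4 ± 5.91 CPM in WT (SD, n = 3 each). The log2 fold change was 0.49 ± 0.19 (SE), with a 95% interval of 0.07 to 0.91 and an adjusted p of 0.150 (edgeR quasi-likelihood test, Benjamini-Hochberg over all 21206 tested features; unadjusted 0.0260). On a linear scale the interval runs from 1.05-fold to 1.87-fold.

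Zm00001d047017, the paralogue on chromosome 9, had 8.34, 25.5 and 18.4 CPM in PP2CKO replicates 1, 2 and 3, against 13.0, 10.7 and 7.14 CPM in WT replicates 1, 2 and 3. Here too the groups overlap: PP2CKO replicate 1 was lower than WT replicates 1 and 2, while PP2CKO replicates 2 and 3 were the highest of all 6 libraries. The counts behind these levels were 130, 389 and 369 in PP2CKO and 212, 186 and 131 in WT. The mean was 17.4 ± 8.64 CPM in PP2CKO and 10.3 ± 2.96 CPM in WT (SD, n = 3 each). The log2 fold change was 0.76 ± 0.34 (SE), with a 95% interval of 0.02 to 1.50 and an adjusted p of 0.202 (same edgeR test; unadjusted 0.0445). The linear interval of 1.02-fold to 2.83-fold holds both a small difference and one well above that estimated for its paralogue. By limma voom the log2 fold change of Zm00001d047017 was 0.68, with a 95% interval of -0.10 to 1.46 that holds 0.

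**Figure D1:**
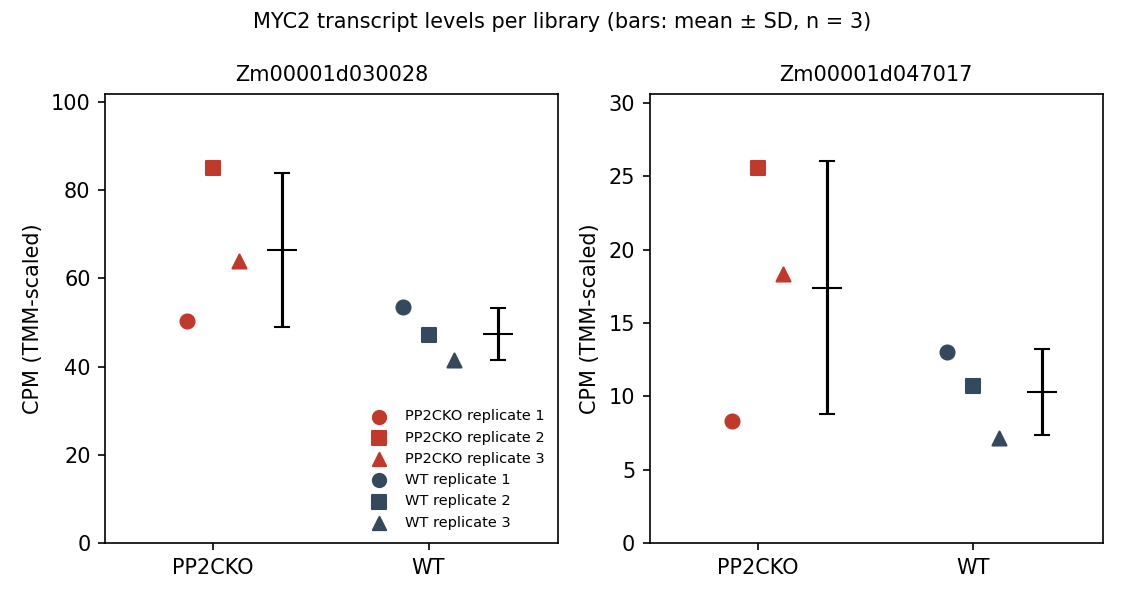
Level of each MYC2 gene in TMM-scaled CPM (vertical axes, each from 0 on its own scale) in PP2CKO and WT libraries; each symbol is 1 library and the bars give mean ± SD (n = 3). In both panels PP2CKO replicates 2 and 3 stand above all WT libraries and PP2CKO replicate 1 does not.

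The number of called members was thus 0 of 2 (edgeR; DESeq2 and limma voom also called 0), beside 7.23% of all tested features called in either direction, 5.15% called higher and 2.08% called lower. At an unadjusted p below 0.05, 2 of 2 members were higher in PP2CKO, a mark that 13.2% of tested features passed in that direction. This count depended on the setting: over 15 alternatives it was 2 of 2 in 7, 1 of 2 in 4 and 0 of 2 in 4. It was 0 of 2 with library size alone, without PP2CKO replicate 2, without WT replicate 2 and without WT replicate 3. The 13.2% belongs to the main fit, and the matching shares under the alternatives are not given here. Whether other genes lost or gained this mark alike is therefore not shown. Groups that do not overlap were found for 0 of 2 members and for 28.2% of tested features. The direction of calls over all genes depended on the scaling, with 71.2% of calls higher under TMM and 29.8% with library size alone, and the median log2 fold change over the tested features was -0.01 and -0.23 under these scalings. With library size alone the log2 fold change was 0.28 for Zm00001d030028 and 0.58 for Zm00001d047017 (unadjusted p = 0.178 and 0.111, edgeR). A change of scaling moves all genes by about the same amount, so the distance from the median, 0.50 and 0.51 for Zm00001d030028 and 0.77 and 0.81 for Zm00001d047017 under TMM and library size alone, is nearly fixed by construction. Among all tested features, 18.0% had a log2 fold change at least as high as that of Zm00001d030028, and 10.2% one at least as high as that of Zm00001d047017.

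**Figure D2:**
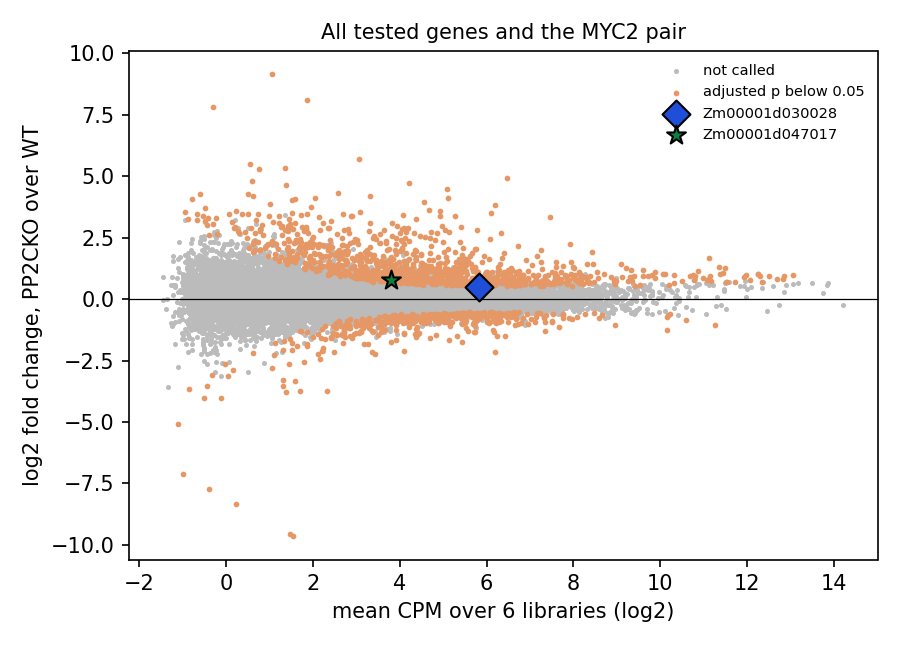
Log2 fold change of PP2CKO over WT (vertical axis) against the mean CPM over 6 libraries on a log2 axis for all 21206 tested features; orange points were called at an adjusted p below 0.05. Both MYC2 genes lie above 0, at 0.49 and 0.76, and neither was called.

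The knockout libraries did not agree on the size of the difference. In PP2CKO replicate 1 the Zm00001d030028 level was 1.06 times the WT mean, against 1.79 and 1.35 times in PP2CKO replicates 2 and 3. For Zm00001d047017, PP2CKO replicate 1 was at 0.810 times the WT mean, against 2.48 and 1.78 times in replicates 2 and 3. Under TMM scaling, PP2CKO replicate 1 was thus near the WT mean for 1 paralogue and below it for the other. The remaining knockout libraries were above the WT mean for both.

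Most genes did not share the gap between PP2CKO replicate 1 and its line. On the log2 CPM scale, PP2CKO replicate 1 differed from the mean of replicates 2 and 3 by -0.55 for Zm00001d030028 and by -1.36 for Zm00001d047017. The median of the same difference over all tested features was 0.02. For the first value 13.6% of tested features were as low or lower in that library, and 3.35% for the second. The comparison takes the knockout library that is lowest for both genes, so small shares follow partly from that choice. The total of PP2CKO replicate 1, 17971317 counts, lay between those of the other knockout libraries. Its TMM factor of 0.869 was the lowest of the 6 libraries. With library size alone, that library had 43.7 CPM for Zm00001d030028, against 47.9 to 53.1 CPM in WT. For Zm00001d047017 it had 7.23 CPM, against 8.23 to 13.0 CPM in WT. The place of that library against WT thus depended on the scaling. Whether its depth or scaling plays a part in the gap from its line was not tested.

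Without PP2CKO replicate 1, Zm00001d047017 passed the test, with a log2 fold change of 1.09 and an adjusted p of 0.0289 (edgeR). Zm00001d030028 came to 0.65 without that library, with an adjusted p of 0.0649 (edgeR). Over 15 alternatives by edgeR, DESeq2 or limma voom, the adjusted p ran from 0.0289 to 0.575 for Zm00001d047017. For Zm00001d030028 it ran from 0.0649 to 0.487. Without PP2CKO replicate 2, the highest library for both genes, the log2 fold changes were 0.27 for Zm00001d030028 and 0.38 for Zm00001d047017, with adjusted p of 0.487 and 0.575 (edgeR). Leaving out a library thus moved the estimates in both directions, and each stayed above 0 in every one of its 15 alternatives.

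**Figure D3:**
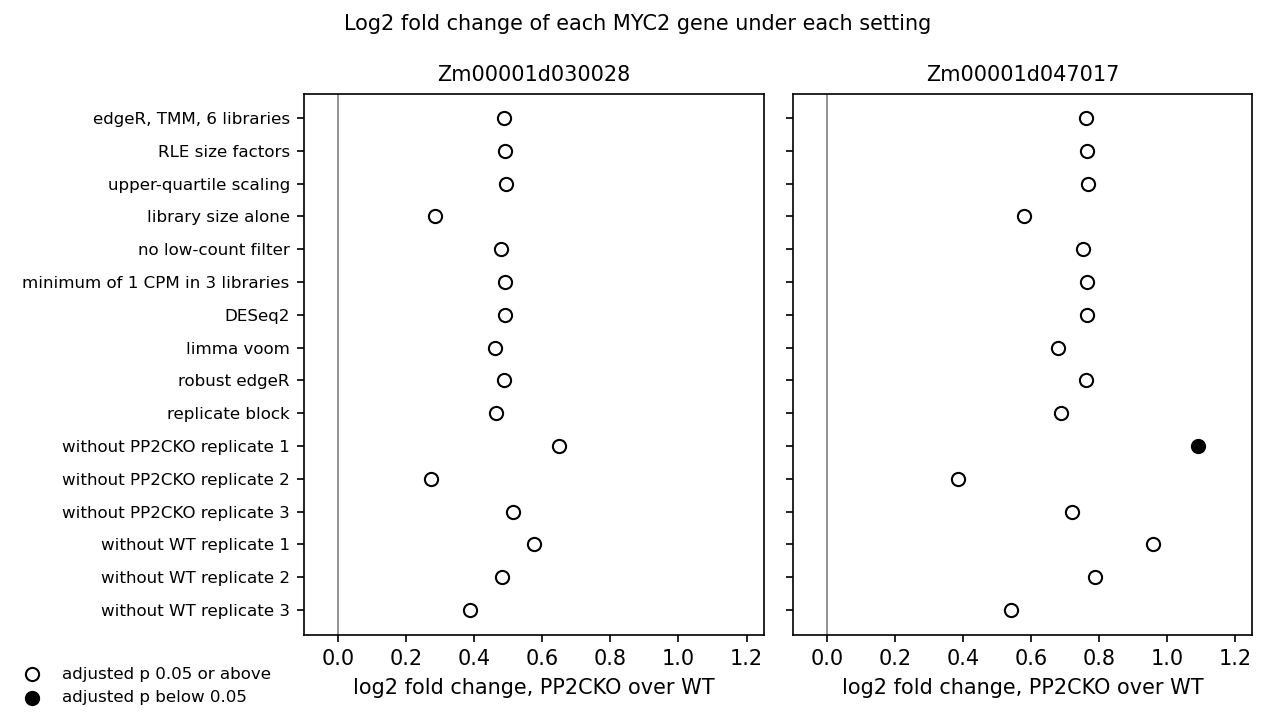
Log2 fold change of PP2CKO over WT (horizontal axes) for each MYC2 gene under each setting named at the left; filled symbols have an adjusted p below 0.05. Every value is above 0, and the 1 filled symbol is Zm00001d047017 without PP2CKO replicate 1, at 1.09.

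The spread between libraries was larger for Zm00001d047017 than for Zm00001d030028 in each line. The SD of log2 CPM was 0.82 in PP2CKO and 0.44 in WT for Zm00001d047017. It was 0.38 in PP2CKO and 0.18 in WT for Zm00001d030028. Counting error alone, as 1 SD on the log2 scale, was 0.07 to 0.13 for Zm00001d047017 and 0.04 to 0.05 for Zm00001d030028. Within PP2CKO the highest library exceeded the lowest 3.06 times for Zm00001d047017 and 1.69 times for Zm00001d030028. Within WT these ratios were 1.82 and 1.28.

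This spread was wide for genes of like abundance in the knockout. Among 4621 tested features within 1.5-fold of the mean CPM of Zm00001d047017, the median SD of log2 CPM was 0.22 in PP2CKO and 0.22 in WT, and 2.99% had a PP2CKO SD as large as that of Zm00001d047017. In WT 8.18% of them had an SD as large. Among 2673 features within 1.5-fold of Zm00001d030028, 9.05% had a PP2CKO SD as large and 49.8% a WT SD as large, so the chromosome 1 paralogue was near the middle of its class in WT. The biological coefficient of variation fitted by edgeR was 0.293 for Zm00001d047017, against a trend of 0.201 at its abundance, and 0.177 for Zm00001d030028, against a trend of 0.163.

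The paralogues followed each other from library to library. Over the 6 libraries their log2 CPM values had a Pearson r of 0.954 (exact permutation p = 0.00417, adjusted 0.00833) and a Spearman rho of 0.943 (exact permutation p = 0.0167, adjusted 0.0167), 2 measures of 1 relation. The permutations mixed libraries of both lines, so these p-values do not separate a difference between lines from tracking within lines. Both genes had the same 3 highest libraries in the same order, PP2CKO replicate 2, PP2CKO replicate 3 and WT replicate 1, and the same lowest library, WT replicate 3. Without the 2 libraries farthest from the median of Zm00001d030028, PP2CKO replicate 2 and WT replicate 3, r was 0.858 over 4 libraries. Deviations from the line means, which leave out the difference between lines, had an r of 0.963, given without a test. The values of both genes come from the same library, with the same total and scaling factor, and reads that fit both paralogues could tie their counts. How alike the transcripts are was not examined here.

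**Figure D4:**
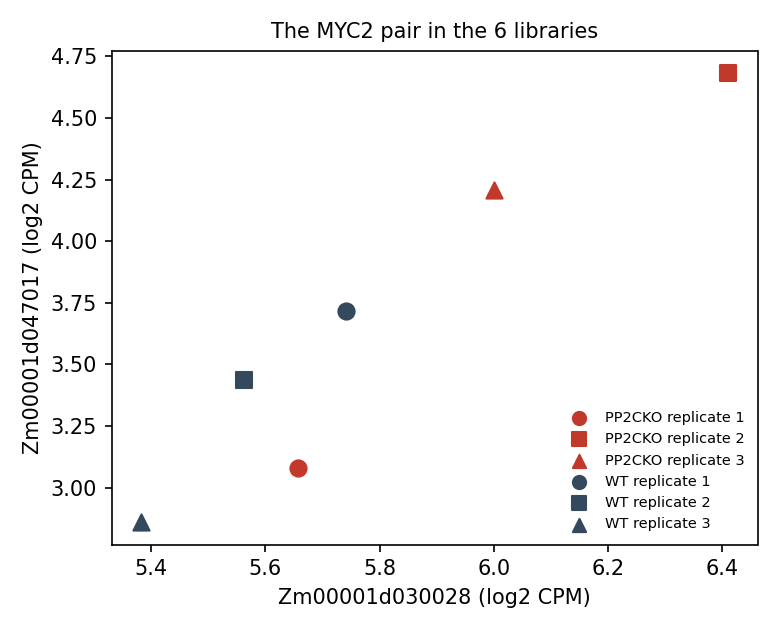
Log2 CPM of Zm00001d047017 (vertical axis) against log2 CPM of Zm00001d030028 (horizontal axis), with 1 symbol per library. The libraries run from WT replicate 3 at the lower left to PP2CKO replicate 2 at the upper right. PP2CKO replicate 1 lies with the WT libraries under the TMM scaling used here.

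The counts of the pair came mostly from Zm00001d030028 in every library. Gene lengths were not used here, so this is a share of counts and not of transcripts. Zm00001d030028 gave 85.8%, 76.9% and 77.7% of the pair's counts in PP2CKO replicates 1, 2 and 3, against 80.4%, 81.5% and 85.3% in WT replicates 1, 2 and 3. PP2CKO replicates 2 and 3 had the lowest shares of all 6 libraries and PP2CKO replicate 1 the highest, so the lines overlap. The 95% Wilson intervals were 83.4 to 87.9%, 74.8 to 78.8% and 75.6 to 79.6% in the PP2CKO libraries, and 77.9 to 82.6%, 79.0 to 83.8% and 82.9 to 87.5% in the WT libraries. Reads without molecular identifiers are not independent molecules, so the intervals reflect counting error alone, and that of PP2CKO replicate 1 does not touch those of PP2CKO replicates 2 and 3.

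Between the lines the share did not differ by more than the spread between libraries. Zm00001d030028 gave 80.1% ± 4.93 (SD, n = 3) of the pair in PP2CKO leaves and 82.4% ± 2.60 (SD, n = 3) in WT leaves, a difference of -2.29 percentage points (exact two-sided permutation p = 0.6). The smallest p that 3 against 3 libraries allow is 0.1. Without PP2CKO replicate 1 the difference was -5.13 percentage points (exact permutation p = 0.1, again the smallest possible). Without PP2CKO replicate 2 it was -0.67, without PP2CKO replicate 3 it was -1.07, and without WT replicate 3 it was -0.82 percentage points. No library scaling enters this share, because both counts come from the same library.

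**Figure D5:**
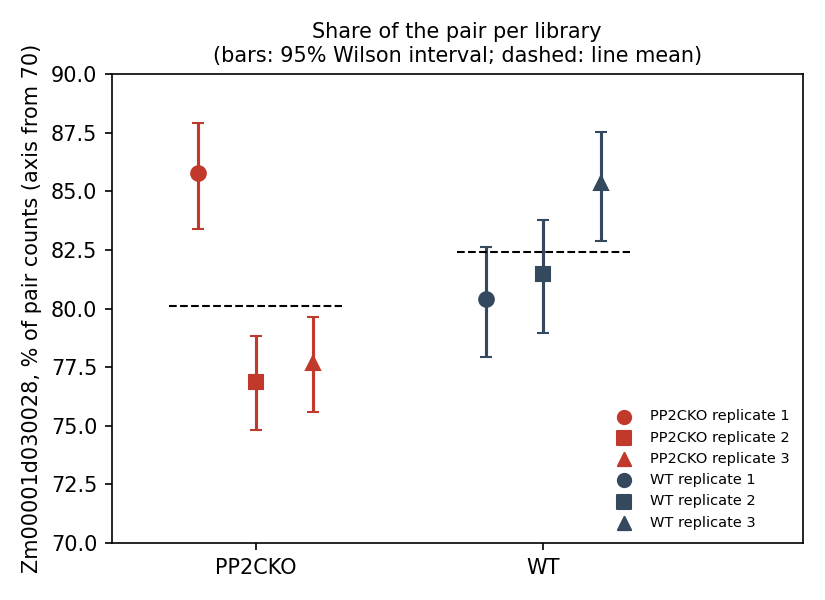
Share of the pair's counts from Zm00001d030028 in percent (vertical axis, shortened and not starting at 0) in each PP2CKO and WT library, with 95% Wilson intervals and dashed lines at the line means of 80.1% and 82.4%. PP2CKO replicate 1, at 85.8%, is apart from PP2CKO replicates 2 and 3, at 76.9% and 77.7%.

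The pair together had 58.7, 110.5 and 82.2 CPM in PP2CKO replicates 1, 2 and 3, against 66.4, 57.8 and 48.7 CPM in WT replicates 1, 2 and 3. Its mean was 83.8 ± 25.9 CPM in PP2CKO and 57.7 ± 8.85 CPM in WT (SD, n = 3 each), a ratio of 1.45 (exact two-sided permutation p = 0.2, smallest possible 0.1). Zm00001d047017 gave 23.1% and 22.3% of the counts in the libraries of highest sum, PP2CKO replicates 2 and 3, followed by 19.6% in WT replicate 1. In order of falling sum it then gave 14.2% in PP2CKO replicate 1, 18.5% in WT replicate 2 and 14.7% in WT replicate 3, so the share did not follow the sum throughout. The share and the sum are computed from the same counts, so this is a description without a test.

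Few transcripts matched the pattern of either paralogue more closely than the paralogues matched each other. Each was compared with 11772 features with a mean of at least 10 CPM, the other paralogue among them. Besides the paralogue, 39 had a Pearson r with Zm00001d030028 of at least 0.954 over the 6 libraries, and 8 had one that high with Zm00001d047017. The closest to Zm00001d030028 was Zm00001d004972 (r = 0.996). It had 8.72, 17.4 and 12.1 CPM in PP2CKO replicates 1, 2 and 3, against 10.2, 8.51 and 7.09 CPM in WT replicates 1, 2 and 3. Its highest and lowest libraries were those of Zm00001d030028, and it was not called either (log2 fold change 0.57, edgeR adjusted p = 0.218).

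The closest to Zm00001d047017 was Zm00001d048021 (r = 0.982). It had 8.72, 52.6 and 22.1 CPM in PP2CKO replicates 1, 2 and 3, against 17.9, 14.1 and 6.60 CPM in WT replicates 1, 2 and 3. PP2CKO replicate 1 was again below WT replicates 1 and 2, and the gene was not called (log2 fold change 1.11, edgeR adjusted p = 0.200). Both were picked as the highest of 11772 correlations over 6 libraries, so their r values are descriptions only. The sources used here give neither gene a name.

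Identifiers near the pair are given as counts beside the shares over all tested features, which were 7.23% called by edgeR, 23.2% at an unadjusted p below 0.05, 10.5% called by DESeq2 and 5.73% called by limma voom. Within 50 identifier numbers of Zm00001d030028, 37 other features were tested and edgeR called 0 of them, with 5 at an unadjusted p below 0.05. DESeq2 called 1 and limma voom 0. Within 50 numbers of Zm00001d047017, 44 were tested and edgeR called 2, or 4.55%, both higher in PP2CKO, with 5 at an unadjusted p below 0.05, where DESeq2 called 3 and limma voom 2. Counts this small are not set apart from those shares. The 2 features, named after their values were seen, were Zm00001d047037 and Zm00001d047055. Zm00001d047037 had 18.9 ± 3.29 CPM in PP2CKO and 9.68 ± 2.01 CPM in WT (log2 fold change 0.96 ± 0.21 SE, edgeR adjusted p = 0.0200). Zm00001d047055 had 17.1 ± 13.6 CPM in PP2CKO and 2.51 ± 0.258 CPM in WT (log2 fold change 2.76 ± 0.46 SE, edgeR adjusted p = 0.00499; SD, n = 3 each). Identifier numbers stand in for position here, since coordinates were not used.

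Other genes of the jasmonate pathway were not described. A list of 89 symbols for synthesis enzymes, COI receptors, JAZ repressors and MYC factors was compared as written with the count table's identifiers. Those identifiers are not gene symbols, so the result of 0 of 89 was fixed by construction and says nothing about the genes. The gene table used for names held 22 of the 89 symbols. As 0 of 43789 nuclear identifiers matched that table, it could not link these symbols to counts.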

How the data were processed

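Per the labels' protocols, poly(A)-selected leaf RNA was sequenced, reads were cleaned of adaptors and low quality and then aligned to B73 v4 with STAR 2.4.0j. The authors deposited raw counts per gene, 1 column per library. How reads were counted, with which annotation and strand setting, is not given in the sources used here. Reads shared by the paralogues or by antisense transcripts may be assigned either way. Reads of KN5585 were aligned to another inbred line, so divergent genes may be undercounted in both lines.

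Counts were tested with edgeR 4.0.16 (R 4.3.3), quasi-likelihood, genotype as the only term, after filterByExpr (minimum count 10, minimum total 15) and TMM scaling, with calls at a Benjamini-Hochberg adjusted p below 0.05. Intervals of edgeR fold changes are 95% and use the SE implied by the F statistic. No interval of a fold change is adjusted for the number of features tested. Log2 CPM values used a prior count of 2. Shares and sums were compared by exact permutation of the 6 libraries. DESeq2 1.42.0, limma 3.58.1 (voom), other scalings and filters, a replicate block and leaving out each library were alternatives. The labels do not say whether libraries come from separate plants, so a p-value reflects only how these libraries vary, and that variation may be technical. The members and lists were chosen with earlier results of these data known. The genes named are the pair, the closest feature to each by correlation, and any jasmonate gene that could be paired with an identifier; beyond that rule, 2 called neighbours by identifier were named after their values were seen. Of nuclear identifiers, 0 of 43789 matched the gene table.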

Additional observations from a re-analysis of the deposited data

How the results depend on the processing

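Both MYC2 genes stayed above 0 in 15 of 15 alternatives each, all of which reuse the same libraries. Without leaving out a library, the log2 fold change was 0.28 to 0.49 for Zm00001d030028 and 0.58 to 0.77 for Zm00001d047017, with adjusted p of 0.0920 to 0.364 and 0.0557 to 0.287 by edgeR, DESeq2 or limma voom. Leaving out 1 library gave 0.27 to 0.65 and 0.38 to 1.09, and the 1 change of call was that of Zm00001d047017 without PP2CKO replicate 1. Its value without WT replicate 3 was 0.54. The share of Zm00001d030028 kept its sign, at -5.13 to -0.67 percentage points, and so did the pair sum, at 13.0 to 39.8 CPM without 1 library and 16.5 CPM with library size alone. The lowest sum difference came without PP2CKO replicate 2 and the highest without PP2CKO replicate 1.

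Over all genes, 1092 were called higher in PP2CKO and 442 lower. With library size alone these counts were 680 and 1604, and DESeq2 gave 1525 and 703. Without the low-count filter they were 1672 and 781, out of 29079 tested features instead of 21206. The causes of these differences were not tested. Without any 1 library, between 339 and 1141 genes were higher and between 116 and 409 lower.

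The replicate block gave 0.46 and 0.69 for the pair, neither called (edgeR adjusted p = 0.151 and 0.241), and 1323 higher and 537 lower genes overall. Under the block the share differed by -2.29 points (exact sign-flip p = 0.75) and the sum by 26.1 CPM (exact sign-flip p = 0.5). A sign-flip test on 3 pairs cannot give a p below 0.05, so these values do not decide whether a paired difference exists. Libraries of equal number had deviations that correlated at 0.0525, 0.0888 and 0.0847. Each is below 0.1, so the numbers were not treated as pairs, although each library correlated best with its own number. With 3 libraries per line, the missing calls do not show that the pair is equal between lines.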
